A study of Mus musculus with 24 samples.

Results

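The genes described here are 41 germline and meiosis genes of the mouse, measured in growth plate cartilage, a tissue that holds no germ cells. Each gene was matched by its symbol to 1 probe set, giving 41 of the 41345 probe sets on the array. The probe set of Sycp3 also carries the symbol Chpt1, so its values cannot be assigned to Sycp3 alone. Ddx43 led to the choice of the group, because its level was higher in the proliferative zone (PZ) of Ezh1/2 mice, and the other 40 were taken for their roles in germ cells to ask whether they rose along with it. That PZ change of Ddx43 is therefore given as a description and without a test.

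The 24 arrays held RNA of the proximal tibial growth plate of 3-day-old mice on a mixed background. They fell into 4 groups of 6, the PZ and the hypertrophic zone (HZ) of wild-type and of Ezh1/2 mice. All of these animals carried Col2-cre, which drives recombination in chondrocytes, and all lacked Ezh1, so the animals called wild type were Col2-cre Ezh1-/- Ezh2+/+ and the Ezh1/2 animals were Col2-cre Ezh1-/- Ezh2 fl/fl. Each array held amplified RNA from 1 zone of 1 animal, taken by laser capture microdissection. Each genotype had 6 animals, so its PZ and HZ arrays share animals.

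Germline genes are expressed in the developing gametes, where their products drive meiotic recombination and synapsis, process piRNAs (small RNAs that silence transposons) and control translation, and most are silent in somatic tissue. Their silencing in somatic cells is known to rest largely on DNA methylation of CpG-rich promoters and on a variant Polycomb complex that is guided by E2F6 and by MGA with MAX. EZH1 and EZH2 are the alternative catalytic subunits of Polycomb repressive complex 2, which trimethylates lysine 27 of histone H3 at repressed promoters.

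The deposited values are log2 levels after robust multi-array averaging (RMA). They carry no call of whether a probe set is above background, and the level of 1 probe set cannot be set against that of another. The mean levels of the 41 members over the 24 arrays ran from 3.11 to 5.70. In the PZ, the Ezh2 level was lower in Ezh1/2 mice (log2 difference -0.63, adjusted p = 0.0852 in limma, exact permutation p = 0.0022), with all 6 arrays below all 6 wild-type arrays. In the HZ it was not lower (0.17, adjusted p = 0.899). The wild-type Ezh2 level was itself lower in the HZ than in the PZ (-0.82, adjusted p = 3.4e-05 in limma). The Ezh2 mean was 6.27 in the wild-type HZ and 6.46 in the Ezh1/2 PZ. Whether this zone difference hid a loss in the HZ was not tested. By PCR on microdissected tissue, the paper reports much lower expression of the gene in every zone of the mutant mice, HZ included. It also reports loss of the protein from their cartilage on immunostaining. As the HZ arrays did not show a lower level, those of this genotype are called arrays labelled Ezh1/2. The values of the HZ arrays spanned a narrower interquartile range (1.35 to 1.78) than those of the PZ arrays (1.79 to 2.02). The HZ markers Col10a1, Ihh and Mmp13 were called higher in the HZ of both genotypes, and the proliferation genes Mki67 and Top2a lower. In such tissue, fewer cells of a type and less RNA per cell cannot be told apart.

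Promoter windows from RefSeq (GRCm38.p6), from 250 bases before to 50 bases after an annotated start, were found for 36 of the 41 members. Tex11, Tdrd6, Spo11, Piwil2 and Tex15 had none. Tdrd1 had 3 windows and Piwil4, Syce2 and Hormad1 had 2, of which 1 was used. Some windows lay inside the gene. Stag3 begins at position 138272514 and its window at 138280259, and Mei1 at 82070074 and its window at 82082226. The windows of Ddx4, Tdrd5, Msh4, Msh5 and Stra8 also lay inside their genes. The counts below describe the windows used and may miss other starts. Ddx43 is shown as the gene that led to the choice, Dmc1 as the other member with the largest PZ difference, and Ddx4, another DEAD-box helicase, as a CpG-rich member with a PZ difference near 0. Capitals mark CpG dinucleotides, and each window is written 5′ to 3′ in the direction of its gene.
Ddx43, chr9:78395527-78395826, + strand: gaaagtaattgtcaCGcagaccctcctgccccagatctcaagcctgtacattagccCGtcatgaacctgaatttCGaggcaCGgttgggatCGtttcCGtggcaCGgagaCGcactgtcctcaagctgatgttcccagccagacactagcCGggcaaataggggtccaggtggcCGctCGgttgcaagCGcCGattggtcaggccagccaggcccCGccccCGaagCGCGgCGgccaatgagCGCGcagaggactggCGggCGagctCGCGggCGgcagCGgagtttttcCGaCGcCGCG
Dmc1, chr15:79605060-79605359, - strand: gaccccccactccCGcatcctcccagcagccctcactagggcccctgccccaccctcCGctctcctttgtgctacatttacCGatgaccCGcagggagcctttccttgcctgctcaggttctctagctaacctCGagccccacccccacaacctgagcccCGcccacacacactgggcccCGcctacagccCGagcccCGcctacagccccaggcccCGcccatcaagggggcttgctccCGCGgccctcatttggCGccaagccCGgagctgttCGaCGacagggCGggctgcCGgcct
Ddx4, chr13:112652261-112652560, - strand: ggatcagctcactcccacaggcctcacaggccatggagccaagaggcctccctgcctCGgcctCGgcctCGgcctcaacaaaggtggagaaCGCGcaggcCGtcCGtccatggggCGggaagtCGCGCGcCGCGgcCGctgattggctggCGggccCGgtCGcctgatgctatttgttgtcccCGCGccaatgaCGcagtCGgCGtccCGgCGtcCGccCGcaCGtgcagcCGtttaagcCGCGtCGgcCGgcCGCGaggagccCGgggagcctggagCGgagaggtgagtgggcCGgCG
The Ddx43 window held 30 CpG, and 11.7% of all 32807 windows held as many or more. The Dmc1 window held 18 and the Ddx4 window 38. The median was 18.5 CpG over the members with a window and 7 over all windows. The members Ddx4, Ddx25, Tdrd5 and Stag3 also had windows with 30 or more CpG (38, 41, 48 and 30), and their PZ differences were -0.03, 0.29, -0.02 and 0.28. The sequence CACGTG, the E-box bound by MGA with MAX, was present in 13 of the 36 member windows (36.1%) and in 2346 of the 32807 windows (7.15%). The sequence TCCCGC, the core of the E2F6 site, was present on either strand in 17 of the 36 (47.2%) and in 6553 of the 32807. Each of these motifs contains a CpG and neither contains the other. The member windows had the higher median CpG count, and these shares were not matched for it. Whether the motifs were more frequent than in windows of like CpG count was not tested. The Ddx43 window held neither, the Dmc1 window held TCCCGC without CACGTG, and the Ddx4 window held both. These matches describe the letters in the windows and not the binding of a factor.

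Ddx43 encodes a DEAD-box RNA helicase that is expressed in the testis and is known in human tumours as a cancer-testis antigen. Its log2 level was 3.55, 3.52, 4.36, 3.97, 3.41 and 3.73 on the wild-type PZ arrays. On the Ezh1/2 PZ arrays it was 5.55, 5.73, 5.18, 5.16, 5.62 and 5.42. All 6 Ezh1/2 arrays lay above all 6 wild-type arrays, and the group means were 3.76 ± 0.35 and 5.44 ± 0.23 (SD, n = 6 each), a difference of 1.69 or 3.22-fold.

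The gene was chosen for its PZ level, with earlier results of these data known. The HZ arrays share animals with the PZ arrays and were normalized together with them. The HZ tests of Ddx43 are therefore not independent of that choice. On the HZ arrays Ddx43 was 3.34, 3.39, 3.11, 3.57, 3.20 and 3.45 in wild type. It was 4.20, 3.32, 3.48, 4.16, 3.88 and 4.24 on the arrays labelled Ezh1/2. Of these, 4 of 6 lay above all wild-type arrays, and arrays 2 and 3 lay among them. The means were 3.34 ± 0.17 and 3.88 ± 0.40 (SD, n = 6 each), a difference of 0.54 (standard error 0.17, 95% interval 0.17 to 0.91). The exact permutation test gave p = 0.0216 and limma p = 0.0078, but after adjustment over all 41345 probe sets the HZ difference was not called (adjusted p = 0.51). Leaving out any 1 HZ array gave differences of 0.46 to 0.65, and adjusted p over all alternatives ran from 0.187 to 0.756. From PZ to HZ the level of Ddx43 differed by -0.41 in wild type and by -1.56 on the arrays labelled Ezh1/2, given without a test because the PZ arrays enter both.

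**Figure D1:**
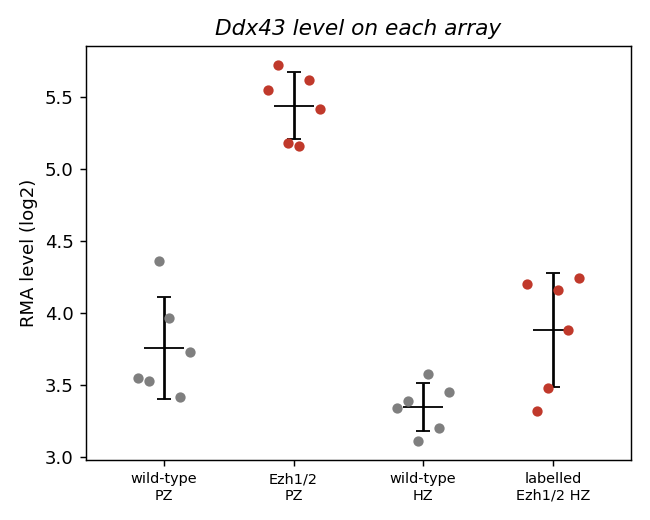
Log2 RMA level of Ddx43 on each of the 24 arrays in the 4 groups (points), with the group mean and SD (bars). The Ezh1/2 PZ arrays lie between 5.16 and 5.73, above the wild-type PZ arrays at 3.41 to 4.36, and in the HZ 4 of 6 arrays labelled Ezh1/2 lie above all wild-type arrays.

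The genes beside Ddx43 on chromosome 9 were examined too, and none of those named here was called by genotype in either zone. The 3 nearest genes with a probe set on each side were Omt2b, Dppa5a and Ooep on the one side and Cgas, Mto1 and Eef1a1 on the other. Ooep, a maternal factor of the oocyte, differed by 0.09 in the PZ (adjusted p = 0.958), and Dppa5a, a gene of pluripotent cells, by 0.13 (adjusted p = 0.907). Cgas, the cytosolic DNA sensor that is the next gene after Ddx43, differed by 0.24 (exact permutation p = 0.0195, adjusted p = 0.50 in limma). Among all named probe sets, the levels that followed Ddx43 most closely over the 24 arrays were those of Fndc3c1 (Pearson r = 0.914), Tfap2a (0.898), Pappa2 (0.894), Hoxd8 (0.872) and Fbln2 (0.868), none of them a member. These correlations describe arrays that share the 4 groups. Among the other members the closest were Tex15 (0.70) and Ddx25 (0.63).

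In the PZ, none of the other 40 members was called between Ezh1/2 and wild-type mice by limma at an adjusted p under 0.05, where 0.411% of all probe sets were called in either direction (170 of 41345). At an unadjusted p under 0.05, Dmc1 and Tex15 were higher (2 of 40, against 4.15% of all probe sets) and 0 of 40 were lower (against 3.33%). The difference was positive for 26 of the 40, against 52.1% of the 31691 probe sets with mean levels inside the range of the members. The median difference was 0.03 against 0.00 over all probe sets, and the differences ranged from -0.20 for Tex19.1 to 0.57 for Dmc1. The 95% interval of the difference lay within 1 on the log2 scale in either direction for 39 of 40 members and within 0.5 for 35. The exception to the first was Sycp1, with an upper bound of 1.23.

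**Figure D2:**
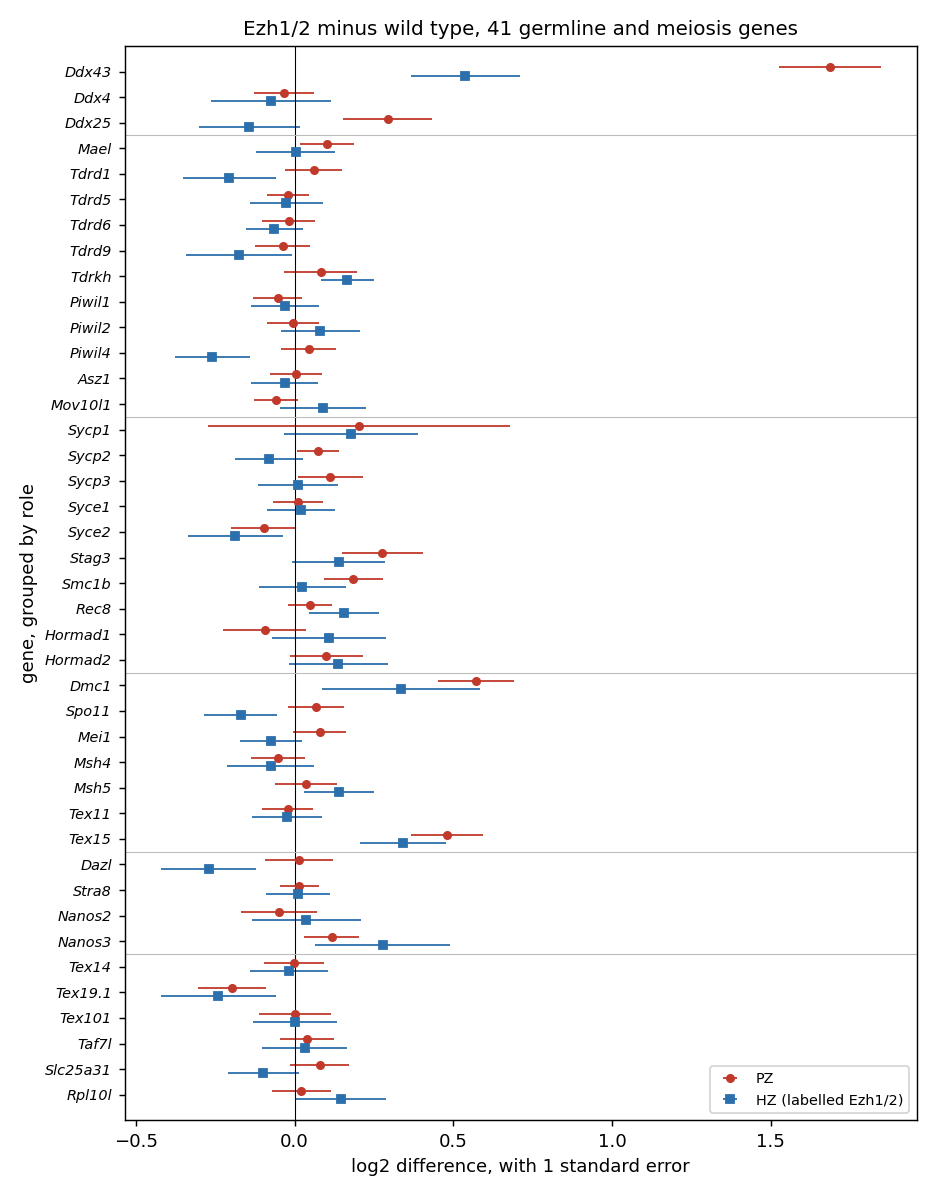
Difference in log2 level between Ezh1/2 and wild-type mice for each of the 41 members, grouped by role, in the PZ (circles) and the HZ (squares), with 1 standard error from limma. Ddx43 stands at 1.69 in the PZ, and the other 40 lie between -0.20 and 0.57 in the PZ and between -0.27 and 0.34 in the HZ.

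Of the other germ cell RNA helicases, Ddx4 (Vasa), which marks germ cells from early development on, ranged from 3.98 to 4.58 on the wild-type PZ arrays and from 4.18 to 4.46 on the Ezh1/2 PZ arrays. The groups overlapped and the difference was -0.03 (95% interval -0.24 to 0.17). Ddx25, a testicular helicase needed for spermatid development, was 3.96, 4.30, 4.45, 4.62, 4.68 and 4.44 in the wild-type PZ and 4.70, 5.18, 4.52, 4.54, 4.76 and 4.52 in the Ezh1/2 PZ. The groups overlapped, with 1 Ezh1/2 array apart at the top, and the difference was 0.29 (standard error 0.14, adjusted p = 0.687). In the HZ, Ddx4 and Ddx25 differed by -0.07 and -0.14, and neither was called.

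The 11 genes of the piRNA pathway and the germ granule differed by -0.06 to 0.10 in the PZ, with 0 called and 0 past an unadjusted p under 0.05. They include the PIWI proteins, which bind piRNAs, and the Tudor-domain proteins that hold them in the germ granule. Piwil4, the nuclear PIWI protein of fetal male germ cells, had HZ levels of 4.07, 3.81, 4.33, 3.83, 3.91 and 3.81 in wild type and 3.88, 3.82, 3.77, 3.66, 3.55 and 3.53 on the arrays labelled Ezh1/2. These groups overlapped (difference -0.26, standard error 0.12, exact permutation p = 0.0281, adjusted p = 0.754 in limma), and in the PZ the difference was 0.04.

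Of the 10 genes of the meiotic chromosome axis and synapsis, 8 had positive differences in the PZ and 0 were called. The largest was that of Stag3, a subunit of the meiotic cohesin, at 0.28 (standard error 0.13, adjusted p = 0.669). Smc1b, another meiotic cohesin subunit, differed by 0.18 (adjusted p = 0.711). Sycp1, the transverse filament of the synaptonemal complex, was named after its values were seen, for its spread. Its PZ levels were 6.28, 4.17, 4.21, 4.29, 4.03 and 4.15 in wild type and 6.72, 4.19, 4.52, 4.54, 4.29 and 4.09 in Ezh1/2. In each genotype PZ array 1 stood far above the others, which ran from 4.03 to 4.54. The difference was 0.20 over all arrays and 0.15 without these 2 arrays (adjusted p = 0.978 and 0.807).

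Dmc1 and Tex15 belong to the 7 genes of meiotic recombination. Dmc1, the meiotic strand-exchange recombinase, had PZ levels of 4.77, 4.87, 4.82, 4.60, 4.79 and 4.25 in wild type and 5.36, 5.39, 5.10, 5.34, 4.93 and 5.40 in Ezh1/2. All 6 Ezh1/2 arrays lay above all 6 wild-type arrays, and Dmc1 was the 1 of the 40 without overlap, against 0.834% of all probe sets in either direction. The means were 4.68 ± 0.23 and 5.25 ± 0.19 (SD, n = 6 each), a difference of 0.57 (standard error 0.12, 1.48-fold). The exact permutation p was 0.0022, the smallest that 6 against 6 arrays allow, while the adjusted p was 0.0748. Dmc1 was called without Ezh1/2 PZ array 5 (adjusted p = 0.0413), and its adjusted p over all alternatives ran from 0.0413 to 0.703. In the HZ its levels were 4.53, 5.02, 5.11, 5.0, 5.06 and 4.23 in wild type and 5.71, 4.98, 5.21, 4.73, 5.89 and 4.45 on the arrays labelled Ezh1/2. There the arrays labelled Ezh1/2 reached both above and into the wild-type range, and the difference was 0.34 (standard error 0.25, exact permutation p = 0.249).

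Tex15, which is required for the repair of meiotic breaks and for transposon silencing in male germ cells, had PZ levels of 4.28, 4.62, 4.21, 4.51, 4.42 and 4.73 in wild type. In the Ezh1/2 PZ it was 4.62, 5.21, 5.0, 4.96, 5.03 and 4.84. The groups overlapped through Ezh1/2 array 1 alone, and the difference was 0.48 (standard error 0.11, adjusted p = 0.12, exact permutation p = 0.0043). In the HZ the levels were 3.97, 3.91, 4.26, 3.97, 4.19 and 3.96 in wild type and 4.31, 4.62, 4.80, 4.33, 4.0 and 4.25 on the arrays labelled Ezh1/2. The difference was 0.34 (standard error 0.14, adjusted p = 0.676, exact permutation p = 0.0152), again with overlap. The other 5 genes of this role, among them Spo11, which makes the meiotic breaks, and Msh4 and Msh5, which stabilise crossovers, differed by -0.05 to 0.08 in the PZ.

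**Figure D3:**
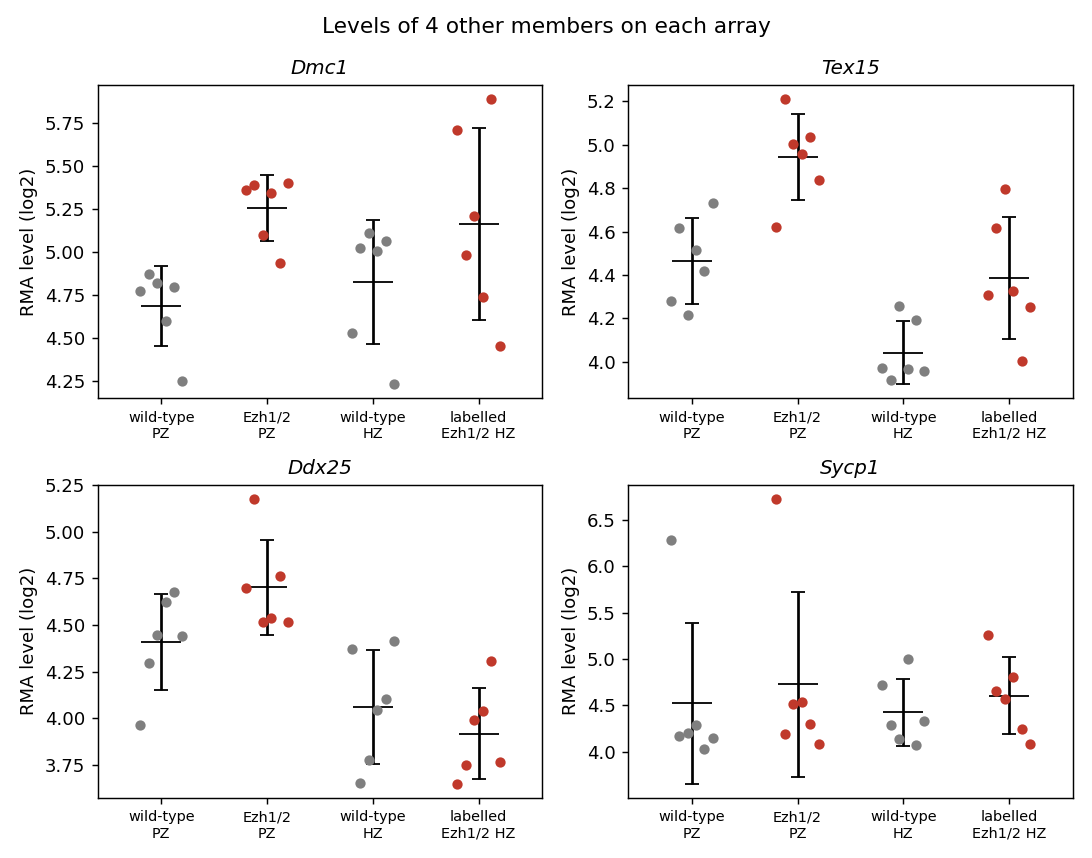
Log2 RMA levels of Dmc1, Tex15, Ddx25 and Sycp1 on each of the 24 arrays (points) with the group mean and SD (bars), each panel with its own vertical scale. In the PZ the Dmc1 groups do not overlap, Tex15 and Ddx25 overlap, and for Sycp1 PZ array 1 stands apart in both genotypes at 6.28 and 6.72.

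The 4 genes of germ cell fate and meiotic entry, Dazl, Stra8, Nanos2 and Nanos3, differed by -0.05 to 0.12 in the PZ. Stra8, the retinoic acid target that starts meiosis, differed by 0.01 in either zone. The 6 remaining germ cell genes differed by -0.20 to 0.08 in the PZ. The lowest was Tex19.1, which restrains transposons in germ cells, at -0.20 (adjusted p = 0.741).

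In the HZ, 0 of the 41 members were called between the arrays labelled Ezh1/2 and wild type, where 0.0169% of all probe sets were called (7 of 41345). At an unadjusted p under 0.05, Tex15 was higher among the members other than Ddx43 (1 of 40, against 3.03% of all probe sets). Piwil4 was lower (1 of 40, against 3.57%). Ddx43 also passed this level as higher, but is left out of the count because it led to the choice of the group. None of the 41 had groups without overlap, against 0.457% of all probe sets. Among the other 40, 21 differences were positive, against 44.7% of the 31691 probe sets with mean levels inside the range of the members. The median of the 40 differences was 0.00 against -0.02 over all probe sets. All 40 intervals lay within 1 on the log2 scale in either direction and 30 within 0.5. The range was from -0.27 for Dazl, an RNA-binding protein that licenses germ cell development, to 0.34 for Tex15. The genotype effect was also compared between the zones for the 40 other members. None was called (0.029% of all probe sets were), and at an unadjusted p under 0.05 the effect on Piwil4 alone was lower in the HZ than in the PZ.

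**Figure D4:**
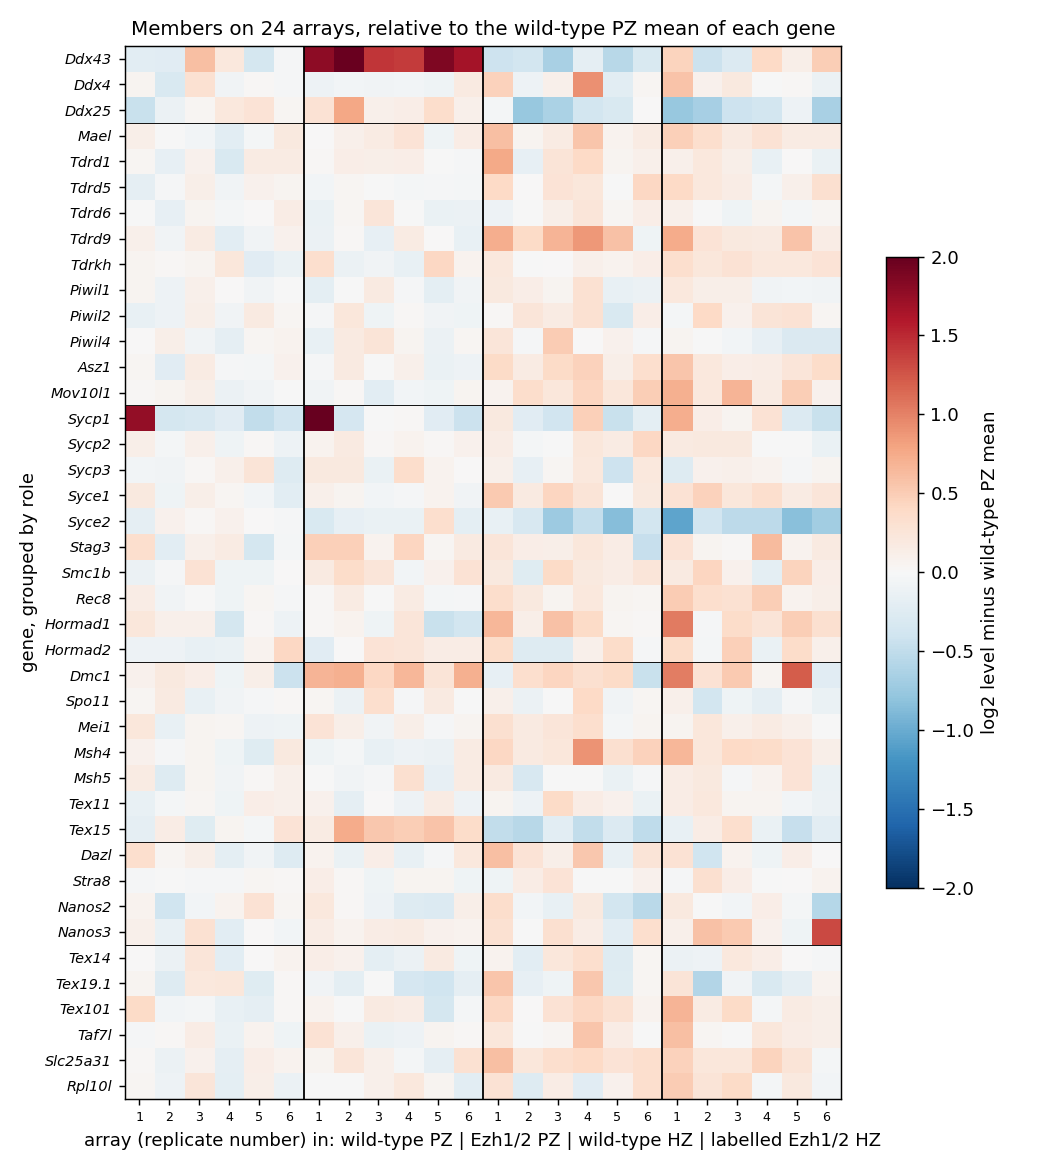
Log2 level of each of the 41 members (rows, grouped by role) on each of the 24 arrays (columns, by group and replicate number), as the difference from the wild-type PZ mean of the gene, in colour from -2 (blue) to 2 (red). The Ddx43 row stands out over the 6 Ezh1/2 PZ arrays, and Sycp1 over PZ array 1 of each genotype.

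Markers of other cell types are given beside these comparisons, and their part in the results was not tested. In the PZ the mean level of 7 perichondrium and fibroblast markers was 7.67 in wild type (range 6.68 to 8.59) and 7.10 in Ezh1/2 (6.86 to 7.77). All 7 differences were negative, down to -1.20, with 0 called and 1 of 7 lower at an unadjusted p under 0.05. In the HZ the mean of 7 skeletal muscle markers was 5.86 in wild type (4.70 to 7.70) and 6.71 on the arrays labelled Ezh1/2 (4.82 to 9.34), and all 7 differences were positive with 0 called. Of the other lists in the PZ, all 4 erythroid markers had negative differences (mean level 6.31 in wild type and 5.76 in Ezh1/2), as did 5 of 6 endothelium markers. The erythroid differences reached -1.05, and 1 of the 4 was lower at an unadjusted p under 0.05. In the HZ, all 7 osteoclast markers had positive differences (mean level 6.29 in wild type and 6.73 on the arrays labelled Ezh1/2, 2 of 7 higher at an unadjusted p under 0.05), as did all 6 endothelium, 6 of 7 perichondrium and fibroblast and 4 of 6 myeloid markers. None of these was called. The 8 markers of the zones and of cartilage were Col10a1, Ihh, Mmp13, Mki67, Top2a, Col2a1, Acan and Comp. By genotype 0 of these 8 were called in either zone. In the HZ 3 were lower and 0 higher at an unadjusted p under 0.05, against 3.57% and 3.03% of all probe sets. Their HZ differences ran from -0.79 to 0.45. In the PZ 0 passed in either direction. Their part in the results was not tested either.

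Related genes outside the group were taken from lists of the same pathways. In these lists, by genotype, limma called 0 genes in either zone. The counts below are at an unadjusted p under 0.05 in the PZ, which 4.15% of all probe sets passed as higher and 3.33% as lower. Of 24 other meiosis genes it was 1, Meiob, a partner of meiotic recombination, with a PZ difference of 0.25 (adjusted p = 0.421). Of 11 other piRNA pathway genes with a probe set it was 1, the Tudor protein Tdrd7, at 0.37 (adjusted p = 0.268). Of 22 spermatid and oocyte genes there was 1 in each direction, the maternal RNA-binding factor Zar1 at 0.58 (standard error 0.20, adjusted p = 0.427) and the maternal-effect gene Nlrp5 at -0.30 (adjusted p = 0.472). Of 22 germ cell regulators and pluripotency genes it was 1, Zbtb16, a factor of spermatogonial stem cells, at 0.26 (adjusted p = 0.63). Median PZ differences of these 4 lists were 0.01, 0.04, 0.00 and 0.01.

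Of 27 genes that silence germline genes in somatic cells, 1 was higher and 2 were lower in the PZ at an unadjusted p under 0.05. The de novo DNA methyltransferases Dnmt3a and Dnmt3b differed by 0.26 and -0.27 (adjusted p = 0.49 and 0.581), and Max, the E-box partner of MGA, by -0.34 (adjusted p = 0.657). In the HZ, Cbx1, a heterochromatin protein, differed by 0.35 and Ehmt1, a histone H3 lysine 9 methyltransferase, by -0.34 (adjusted p = 0.622 and 0.647). The median PZ difference of the list was -0.04. Among 17 somatic relatives of the members, 2 were higher and 3 lower in the PZ at an unadjusted p under 0.05. The higher were Stag1, a cohesin subunit of mitotic cells (0.33, adjusted p = 0.193), and Mov10, the relative of Mov10l1 (0.30, adjusted p = 0.421). The lower were Slc25a5, an ADP/ATP carrier (-0.33), the mismatch repair gene Msh6 (-0.28) and Taf7, the general transcription factor related to Taf7l (-0.20), with adjusted p of 0.547, 0.592 and 0.649. In the HZ, 2 of the 17 were higher at an unadjusted p under 0.05 (against 3.03% of all probe sets). One way down went 1 of the 17 (against 3.57%), Taf7, at -0.55 (adjusted p = 0.303 in limma). Differences in the HZ were positive for 13 of the 17, with a median of 0.15. Max, Slc25a5 and Msh6 were named after their values were seen, to complete the PZ counts. Of 28 other DEAD-box helicases, 0 were higher in the PZ at an unadjusted p under 0.05 and 3 were lower, Ddx1, Ddx21 and Ddx56 (adjusted p = 0.618, 0.626 and 0.656).

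The zones were then compared within each genotype. Arrays were fitted as separate samples although the zones share animals. With the replicate number as a random block, 10 members were called in each genotype. For 2 wild-type numbers Xist gave different sexes in the zones, so this block does not fully account for the shared animals. In wild type, 7 of the 40 members other than Ddx43 were called higher in the HZ than in the PZ and 2 lower, where 17.3% of all probe sets were called higher and 15.9% lower. On the arrays labelled Ezh1/2 against the Ezh1/2 PZ arrays, 7 were called higher and 3 lower, where 14.3% and 15.6% of all probe sets were called. Differences were positive for 33 of 40 members in wild type and for 26 of 40 in Ezh1/2. Of the 31691 probe sets with mean levels inside the range of the members, 65.5% and 60.4% were positive. Of these probe sets, 18.2% and 14.7% were called higher, and 10.5% and 10.8% lower.

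Of the higher calls in wild type, 4 were among the 11 piRNA pathway and germ granule genes, as were 3 of those in Ezh1/2. None of the 4 genes of germ cell fate and meiotic entry was called in either genotype. Among the piRNA genes, Tdrd9, a helicase, lay between 3.77 and 4.15 on the wild-type PZ arrays and between 3.90 and 4.85 (median 4.63) on the wild-type HZ arrays. The groups overlapped through 1 HZ array, and the difference was 0.53 (standard error 0.13, adjusted p = 0.0043), with 0.39 in Ezh1/2 (adjusted p = 0.031). Mov10l1, the helicase that feeds piRNA precursors to PIWI proteins, was higher in the HZ by 0.30 in wild type and by 0.45 in Ezh1/2, where the zones did not overlap (3.55 to 3.81 in the PZ and 3.84 to 4.48 in the HZ). Asz1, a germ granule scaffold, was higher by 0.31 and 0.27. Mael, which acts in transposon silencing, was called in wild type (0.27, adjusted p = 0.0487) and in Ezh1/2 was at 0.17 (adjusted p = 0.231).

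Of the meiotic genes, Syce2, a central element protein of the synaptonemal complex, was lower in the HZ in both genotypes. It lay between 5.30 and 5.58 on the wild-type PZ arrays and between 4.64 and 5.34 on the wild-type HZ arrays, which overlapped (difference -0.48, adjusted p = 0.0054). In Ezh1/2 it ranged from 5.19 to 5.83 and from 4.43 to 5.11, without overlap (-0.57, adjusted p = 0.0014). Syce1, of the same structure, was higher in the HZ instead, by 0.27 in wild type and 0.28 in Ezh1/2. Msh4 was higher by 0.42 and 0.39. Tex15 was lower, with differences of -0.42 in wild type and -0.56 in Ezh1/2 (adjusted p = 0.012 and 0.0014). The axis genes Rec8 (0.26, adjusted p = 0.0246) and Hormad1 (0.50, adjusted p = 0.0198) were called higher in Ezh1/2 and were at 0.15 and 0.30 in wild type (adjusted p = 0.177 and 0.147). Slc25a31, the germ cell ADP/ATP carrier, was higher in the wild-type HZ without overlap (0.36, adjusted p = 0.0069) and was at 0.18 in Ezh1/2 (adjusted p = 0.161). Ddx25 was lower in the Ezh1/2 HZ, at 3.65 to 4.31 against 4.52 to 5.18 in the PZ, without overlap (-0.78, adjusted p = 0.00038), and was at -0.35 in wild type (adjusted p = 0.08). None of these differences between genotypes was called in the test of the genotype effect between zones, described above. Lack of overlap between zones, here and for Mov10l1, is a description only, as its share over all probe sets was not counted.

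**Figure D5:**
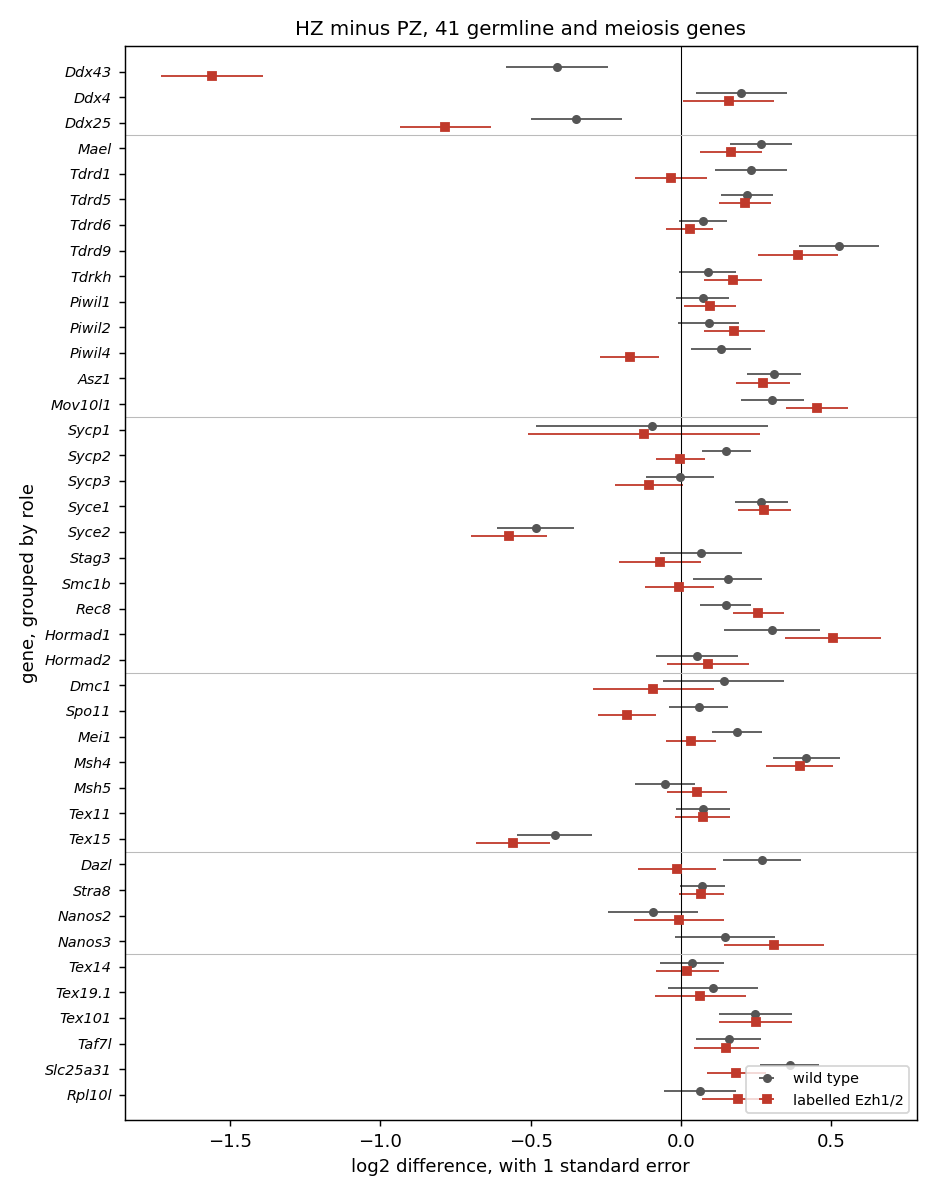
Difference in log2 level between HZ and PZ for each of the 41 members, grouped by role, in wild type (circles) and Ezh1/2 (squares), with 1 standard error from the 24-array limma fit. Syce2 and Tex15 are lower in the HZ of both genotypes, and Tdrd9, Msh4, Asz1, Syce1 and Mov10l1 higher.

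Markers of some other cell types also stood higher on the HZ arrays, while those of others did not in wild type. The mean level of 6 endothelium markers was 4.05 in the wild-type PZ (3.76 to 4.96) and 5.67 in the wild-type HZ (4.42 to 6.63), with 6 of 6 called higher in each genotype. That of 6 myeloid markers was 4.80 (4.17 to 5.97) and 6.16 (5.67 to 6.73), with 5 of 6 called higher in each genotype. The mean of 7 perichondrium and fibroblast markers was 7.67 in the wild-type PZ and 7.35 in the wild-type HZ, with 1 called higher and 1 lower. In Ezh1/2 it was 7.10 and 7.79. For 7 skeletal muscle markers the means were 5.96 and 5.86 in wild type and 5.83 and 6.71 in Ezh1/2. The part of these markers in the zone differences of the members was not tested. Without the 3 HZ arrays of the narrowest range (wild-type 1 and 4 and Ezh1/2 1), a choice made after the data were seen, 6 members were called in wild type and 8 in Ezh1/2.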

How the data were processed

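RNA of 24 microdissected growth plate samples was measured on Affymetrix Mouse Gene arrays. The authors background-corrected, normalized and summarized the arrays together by RMA in Partek Genomics Suite and deposited log2 values for 41345 probe sets. This processing may understate changes of dim probe sets, and no background call was available. Gene names came from the annotation of the platform (23521 with 1 symbol, 1820 with several, 16004 with none).

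Genotypes were fitted separately for each zone (12 arrays), and zones, with the interaction of zone and genotype, over all 24 arrays, by limma 3.58.1 in R 4.3.3, two-sided, with Benjamini-Hochberg adjustment over all probe sets. Calls were made at an adjusted p under 0.05. Exact permutation tests used the 924 arrangements of 6 against 6 arrays. The number of arrays limits the precision. The fits were tested on simulated data first.

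Members and lists were chosen with earlier results of these data known. The genes named are Ddx43, members called in any comparison or past an unadjusted p under 0.05 by genotype, up to 4 lowest-p genes per list, those beside Ddx43, the 5 most correlated with it, and Ezh2. Ddx4, Stag3, Smc1b, Sycp1, Stra8, Dazl and Tex19.1 were named after their values were seen. Alternatives changed the block, the spread, the moderation, the array weights, the probe sets tested, the centring and the arrays used.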

Additional observations from a re-analysis of the deposited data

Results flagged for a closer look

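Within each group of 6 arrays, members were searched for an array that stood apart from the others of its group by Dixon's criterion, which chance meets in about 1 in 20 groups. Among the 15 members named by the rule it was met in 2 of 60 groups, those of Syce2 and Msh4. Sycp1, Ddx4 and Stag3 were added after their values were seen, so the 4 groups of theirs that met it are given as values and cannot be set against chance. Sycp1 had 6.28 on wild-type PZ array 1 and 6.72 on Ezh1/2 PZ array 1, where the nearest other arrays of the groups had 4.29 and 4.54. Syce2 had 5.83 on Ezh1/2 PZ array 5, against 5.36 on the nearest. Ddx4 and Msh4 had 4.46 and 4.05 on Ezh1/2 PZ array 6, against 4.23 and 3.84. Stag3 had 3.46 on wild-type HZ array 6, against 4.03. The array number of the 2 Sycp1 values is the same, and the labels do not say what the PZ arrays of that number shared.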

How the results depend on the processing

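The number of members other than Ddx43 called by genotype in the PZ was 0 and became 1, Dmc1, with the probe sets of above-median mean level only (adjusted p = 0.047, with 6 of the members left in the test), and ranged from 0 to 1 without 1 array (1 without Ezh1/2 PZ array 5). In the HZ it stayed at 0 under all alternatives, as did the number for the genotype effect between zones. The zone count of 9 in wild type became 2 with these (5 members left) and ranged from 7 to 12 without 1 array. The 2 were Syce2 and Tex15, both lower in the HZ, and 0 were called higher. The members called higher in wild type were not among the 5 left. The zone count of 10 in Ezh1/2 became 2 with these (5 members left) and ranged from 6, without Ezh1/2 HZ array 1, to 10 without 1 array. No direction reversed. The zone calls of Mael, Syce1 and Mov10l1 in wild type and of Asz1, Tdrd9, Rec8 and Hormad1 in Ezh1/2 were lost without single arrays, with adjusted p of up to 0.381 for Mael and up to 0.122 for the others over all alternatives. In wild type these were PZ arrays 2, 3, 4 and 5 and HZ arrays 1 and 4 for Mael, PZ array 6 and HZ arrays 1 and 3 for Syce1, and PZ arrays 4 and 5 and HZ arrays 4 and 6 for Mov10l1. In Ezh1/2 they were PZ arrays 5 and 6 and HZ array 1 for Asz1, PZ arrays 1, 3 and 6 and HZ arrays 1 and 5 for Tdrd9, PZ arrays 5 and 6 and HZ arrays 1 and 4 for Rec8, and PZ array 5 and HZ array 1 for Hormad1. The call of Tex15 in wild type was lost without the 3 narrow HZ arrays (adjusted p = 0.0595).

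The PZ and HZ arrays of a genotype share animals, but same-numbered arrays were not treated as paired. The correlation of their deviations ranged from -0.13 to 0.28 over the 4 comparisons, and Xist gave different sexes in the 2 zones for 2 wild-type numbers. With the replicate block, 0 members were called by genotype in the PZ, 0 in the HZ and 0 for the difference between zones, and 10 by zone in wild type and 10 in Ezh1/2. In the genotype comparisons, 1 of 6 pairs in the PZ and 4 of 6 in the HZ correlated best with their own number, and in the zone comparisons 3 of 6 in wild type and 5 of 6 in Ezh1/2. The values carry no detection call, so it is not known which members were above background.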
